A study of Saccharomyces cerevisiae with 4 samples.

Results

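Sulfate assimilation to methionine was followed in Saccharomyces cerevisiae through 10 genes, chosen by their systematic names among the 5472 gene models of the deposited table: SUL1, SUL2, MET3, MET14, MET16, MET5, MET10, MET17, MET2 and MET6. All 10 genes have 1 model each in the table, and all were tested by the authors. The study compared messenger RNA of a reference strain with that of a strain whose glycolysis was reduced to its major paralogs. The reference, CEN.PK113-7D, is a prototroph with the genotype MATa MAL2-8c SUC2. The minimal glycolysis strain, IMX372, shares MATa, MAL2-8c and SUC2 and lacks 13 minor paralogs, namely ADH2, ADH4, ADH5, PDC5, PDC6, PYK2, ENO1, GPM2, GPM3, TDH1, TDH2, HXK1 and GLK1. It also carries the alleles ura3-52 and his3-1 and a mutant leu2 allele, and the markers SpHis5 at glk1, KlLEU2 at hxk1 and KlURA3 at tdh1. The deletions cannot be told apart here from these alleles and markers, and IMX372 is a single engineered line.

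Per the labels, each strain has 2 libraries of 51-base reads, sampled in mid-exponential phase from aerated batch reactors held at 30 °C and pH 5, with glucose at 20 g/L. The authors deposited 1 FPKM (fragments per kilobase of gene, scaled to the library's mapped fragments) per strain, pooled over its libraries. Since the labels do not tie these libraries to separate cultivations, the authors' p-values may measure technical spread only. No SD or n can accompany a value, and the depth behind it is unknown beyond the label's statement of at least 1 Gb per data set. Among the 13 deletions, only GPM3 can be checked in this table, where it had a value in the reference and was listed at 0 in IMX372. FPKM is scaled to length, so levels are set side by side between genes as well as between strains. The levels were not corrected for other properties of the genes, so comparisons between genes are rough.

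Yeast takes up sulfate through proton-coupled permeases, activates it with ATP, and reduces it stepwise to sulfite and then sulfide. Sulfide is joined to a carbon chain derived from homoserine to give homocysteine, which is methylated to methionine. The genes of this route are controlled together: the activator Met4, which does not bind DNA by itself, is brought to promoters by Cbf1, which binds the sequence CACGTG, and by Met31 and Met32, whose sites share the core CTGTGG. When methionine and its derivatives are plentiful, the ubiquitin ligase subunit Met30 restrains Met4 and the genes are turned down.

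The Cbf1 sequence is the promoter feature that most of these genes share, so the copy nearest to each start codon is shown. The bases are those of the S288C reference R64 from RefSeq, found through the systematic names in R64's own annotation, and the CEN.PK113-7D sequence may differ from them. Each is written 5′ to 3′ on the strand of the gene, with the 6 bases CACGTG in capitals and 12 bases on either side.
SUL2: gccgtgtcaggtCACGTGaagagagaaatt
MET3: gaccagaaaagtCACGTGtaattttgtaac
MET14: tgccactaatttCACGTGatcaatatattt
MET16: ttatcatcatttCACGTGgctagtaaaaga
MET5: aatgaatttcatCACGTGcgtattatctct
MET10: agcttatagaagCACGTGaccacaattcac
MET17: aatggcaaatggCACGTGaagctgtcgata
MET2: ttgacgtattttCACGTGatgcgcctcact
MET6: caggaaatatttCACGTGacttacaaacag

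CACGTG, which reads the same on both strands, lay within the 500 bases before the start codon in 9 of the 10 genes, against 6.21% of 6019 protein-coding genes of R64. SUL1 was the gene with no match in this window. The first base of the copy shown lay between 178 bases (MET16) and 495 bases (MET6) before the start codon, and SUL2, MET3, MET5 and MET10 had 2 copies each. The longer form TCACGTG, which contains CACGTG and was searched on both strands, was found in the same number, 9 of 10, against 4.55%. The core CTGTGG, on either strand, was found in SUL1, SUL2, MET3, MET10, MET17 and MET6, which is 6 of 10 against 13.1%. Its longer form AAACTGTGG, which contains the core, was found in MET3 and MET6, against 0.847%. A match is a description of the letters in this window and no measurement of binding.

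None of the 10 genes was called different between the strains. A gene was called when the authors' Cuffdiff q, the p adjusted over all tested models, was at most 0.05. The q was 0.998 for each of the 10, beside a background of 43 called among 5437 tested models, or 0.791%, with 0.515% higher and 0.276% lower. With so low a background, 0 of 10 says little about these genes. At an unadjusted Cuffdiff p under 0.05 in the authors' deposited table, 2 members passed, MET14 and SUL1, both with the higher value in IMX372, where 3.27% of tested models passed in either direction and 1.89% in that one. The smallest change called anywhere in the table was 1.57-fold, and no member differed by as much.

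As values, the 10 genes lay on the higher side in IMX372 more often than not. Their log2 ratio of minimal glycolysis over reference was above 0 for 8 and below 0 for 2, with a median of 0.11, or 1.08-fold. The median over 5328 named tested genes was 0.01, and 53.0% of those were above 0. A log2 ratio of at least 0.3 was found in 3 members, MET14, SUL1 and MET16, and in 3.28% of all tested genes. No member was at -0.3 or lower, where 2.61% of all genes were. Among the 1953 genes with at least 100 FPKM in the reference, a level that all members exceed, 3.58% reached 0.3. These counts describe 1 pooled value per strain, and a test of the list was not made.

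A spread can be read only indirectly, from the authors' test statistic. The log2 ratio divided by that statistic gives an implied standard error, which ranged from 0.145 for MET14 to 0.246 for MET6. Over 5435 models the authors' p lay within 1.5 times of the p a normal distribution gives for the statistic in 87.3%, and in 8 of the 10 members. The exceptions were SUL1 and MET14, for which the intervals below are the least certain. An interval of 95% from these errors is given as a fold for each gene, and it rests on the authors' model and not on values per library.

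**Figure D1:**
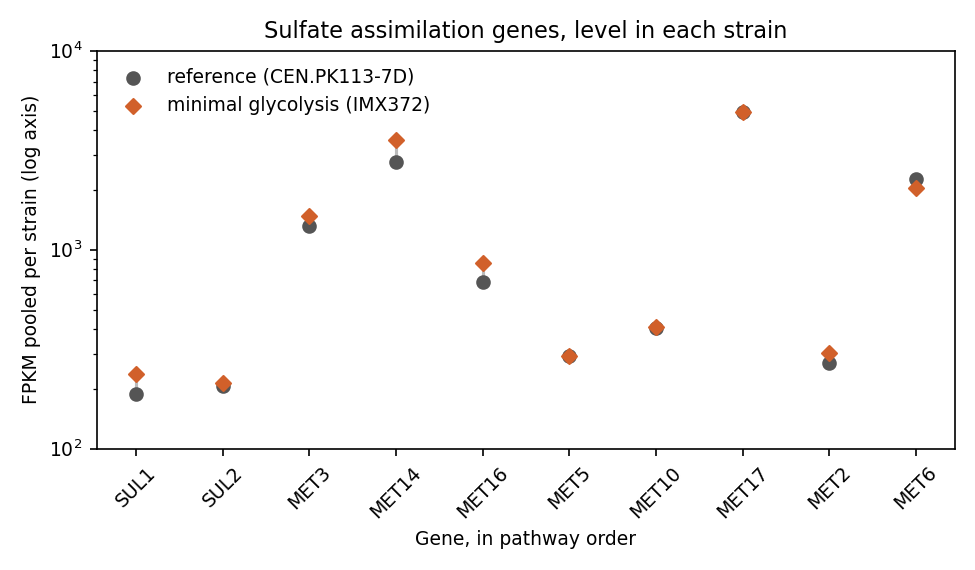
FPKM of the 10 genes in the reference (grey circles) and in the minimal glycolysis strain (orange diamonds), pooled per strain by the authors, on a log axis, with genes in pathway order. MET17 is highest in both strains, at 4924 and 4904, and the sulfate permease genes SUL1 and SUL2 are lowest, between 188 and 237; the symbols of MET14, MET16 and SUL1 stand furthest apart.

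Sulfate uptake came first in the route and lowest in level. SUL1 and SUL2 encode the paired high-affinity sulfate permeases of the plasma membrane. SUL1 (YBR294W, chromosome 2, 784066 to 786645 on the CEN.PK113-7D assembly) had an FPKM of 188 in the reference and 237 in IMX372, a ratio of 1.26-fold with an interval from 0.961-fold to 1.65-fold. Its p was 0.0439 in the authors' deposited table and 0.0944 by the normal approximation, so the interval is wider than the authors' test implies. SUL2 (YLR092W, chromosome 12, 308533 to 311214) had 207 and 214, a ratio of 1.03-fold with an interval from 0.780-fold to 1.37-fold and an authors' p of 0.773. SUL2 was thus the higher of the pair in the reference, at 1.10 times SUL1, and the lower in IMX372, at 0.903 times. The difference between the paralogs was not tested. Reads of 51 bases can be assigned between them, since no stretch of that length in either gene recurs elsewhere in R64.

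Activation and the first reduction held MET14 and MET16, which with SUL1 had the highest ratios. MET3 encodes ATP sulfurylase, which forms adenylyl sulfate. MET3 (YJR010W, chromosome 10, 438799 to 440334) had 1310 and 1476 FPKM, a ratio of 1.13-fold with an interval from 0.858-fold to 1.48-fold and an authors' p of 0.311. MET14 encodes adenylyl sulfate kinase, which adds a further phosphate to that product. MET14 (YKL001C, chromosome 11, 438771 to 439379) had 2768 and 3548 FPKM, a ratio of 1.28-fold, the largest of the 10, with an interval from 1.05-fold to 1.56-fold. Its p was 0.034 in the authors' deposited table and 0.0134 by the normal approximation, so here the interval is narrower than that test implies. MET16 encodes the reductase that uses thioredoxin to release sulfite. MET16 (YPR167C, chromosome 16, 876860 to 877645) had 686 and 855 FPKM, a ratio of 1.25-fold with an interval from 0.992-fold to 1.56-fold and an authors' p of 0.0545. The kinase transcript stood at 2.11 times the sulfurylase transcript in the reference and at 2.40 times in IMX372, and at 4.03 and 4.15 times that of MET16.

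The sulfite reductase genes had ratios close to 1. The enzyme joins the product of MET5, which the table lists under its older name ECM17, to that of MET10, and makes sulfide with electrons from NADPH. MET5 (YJR137C, chromosome 10, 661509 to 665837) had 291 and 293 FPKM, a ratio of 1.01-fold with an interval from 0.756-fold to 1.34-fold and an authors' p of 0.945. MET10 (YFR030W, chromosome 6, 212288 to 215395) had 403 and 411 FPKM, a ratio of 1.02-fold with an interval from 0.764-fold to 1.36-fold and an authors' p of 0.869. MET10 had 1.39 times the FPKM of MET5 in the reference and 1.40 times in IMX372, so the balance between the subunit transcripts was nearly equal in the strains. The log2 ratio of MET5, 0.01, changed sign to -0.0001 when the ratios were centred on the median of all genes.

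The carbon chain and the sulfide meet in the step of MET17, the gene with the highest FPKM of the group. MET2 encodes homoserine acetyltransferase, which prepares the acceptor, and MET17 encodes the sulfhydrylase that turns it into homocysteine. MET2 (YNL277W, chromosome 14, 111337 to 112797) had 269 and 304 FPKM, a ratio of 1.13-fold with an interval from 0.854-fold to 1.495-fold and an authors' p of 0.281. MET17 (YLR303W, chromosome 12, 717556 to 718890) had 4924 and 4904 FPKM, a ratio of 0.996-fold by the table's values, with an interval from 0.741-fold to 1.34-fold and an authors' p of 0.975. MET17 stood 18.3 times above MET2 in the reference and 16.1 times above it in IMX372. Its log2 ratio of -0.01 turned to 0.03 after a correction for level of expression, coding length and GC content. YLR302C overlaps MET17 in R64, and because the libraries do not mark strand, reads of an overlapping gene cannot be told apart.

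Methionine synthase, the last step, was the member with the lowest ratio. MET6 encodes the cobalamin-independent enzyme that methylates homocysteine. MET6 (YER091C, chromosome 5, 338091 to 340394) had 2278 and 2043 FPKM, a ratio of 0.897-fold with an interval from 0.642-fold to 1.25-fold and an authors' p of 0.400. It was the only member with a log2 ratio below -0.1, and the correction for expression level, length and GC content brought it from -0.16 to -0.08.

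**Figure D2:**
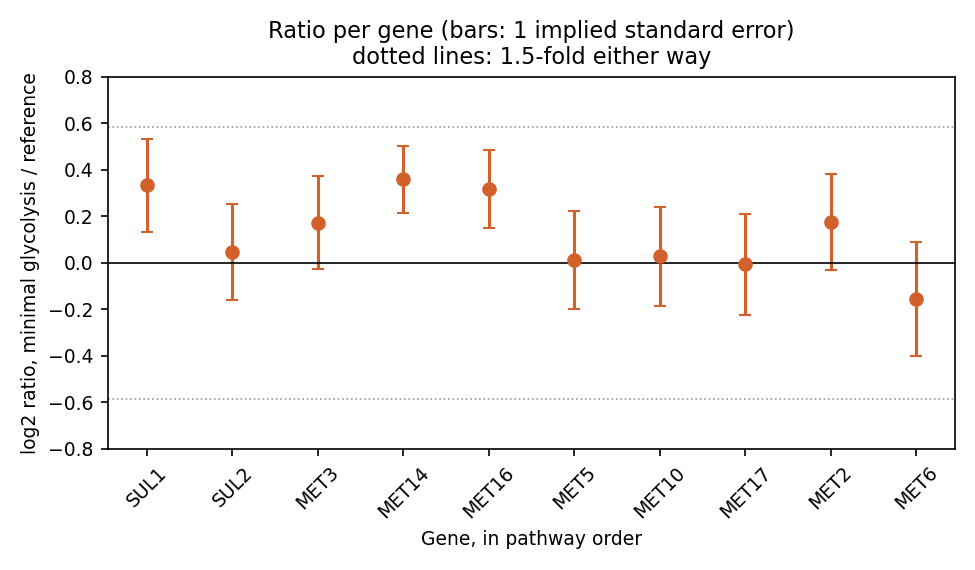
Log2 ratio of minimal glycolysis over reference for each gene in pathway order, with bars of 1 implied standard error from the authors' statistic. MET14 at 0.36, SUL1 at 0.33 and MET16 at 0.32 lie highest, MET6 at -0.16 lowest, and all 10 lie inside the dotted lines at 1.5-fold.

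By position in the route, the 5 genes of uptake, activation and reduction to sulfite were all above 0, with a median log2 ratio of 0.32 and a range from 0.05 to 0.36. The 5 genes of sulfite reductase and the later steps had a median of 0.01, from -0.16 to 0.18, with 3 above 0. The grouping was made with the values known, and the ranges overlap, since SUL2 and MET3 lie below MET2. The order of levels was MET17, MET14, MET6, MET3, MET16 and MET10 from the top in both strains. Below them MET5 stood above MET2 in the reference and below it in IMX372, and SUL2 and SUL1 likewise exchanged places. The spread of a level between libraries is not known, so it cannot be said which neighbours in this order differ beyond it. All members were above 77.5% of the named tested genes in reference FPKM, and MET17 was above 98.8% of them.

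Coding length moved with the ratio and is given beside it. Over the 5328 named tested genes Spearman's rho between coding length and log2 ratio was -0.34, and over the 10 members it was -0.45, genes being no independent replicates. The shortest members, MET14 at 609 bases and MET16 at 786, had ratios of 0.36 and 0.32, while genes with lengths within 20% of theirs had medians of 0.08 and 0.06. The longest, MET5 at 4329 bases and MET10 at 3108, had 0.01 and 0.03, against medians of -0.10 and -0.05 for genes of like length. SUL1, at 2580 bases, went against this order with 0.33 beside a median of -0.03. After the correction for expression level, length and GC content the members' median was 0.14, with 9 of 10 above 0, and SUL1, MET14 and MET16 stood at 0.37, 0.32 and 0.28.

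**Figure D3:**
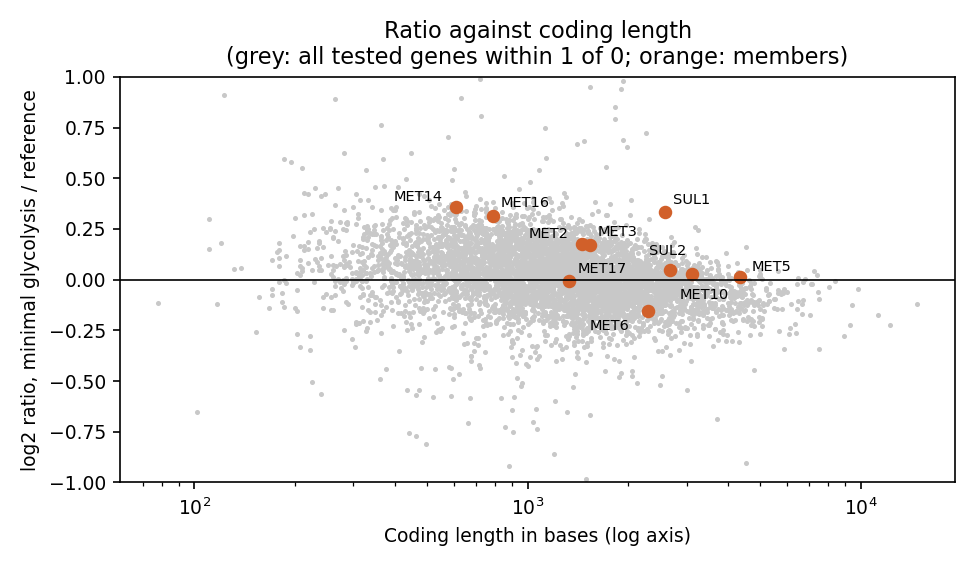
Log2 ratio of minimal glycolysis over reference against coding length in bases (log axis) for the 10 genes (orange, named) and for all named tested genes (grey, 26 genes beyond 1 on either side not shown). The grey cloud slopes down with length. MET14, MET16 and SUL1 lie above the medians of genes of like length, with some of those genes higher still.

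MET3 is a direct neighbour of a deleted locus. TDH2, 1 of the 13 deleted genes, is the next model to the left of MET3 on chromosome 10, and 1606 bases separate the coding models on the CEN.PK113-7D assembly. TDH2 was listed at 0 in both strains and was not tested, so its loss cannot be read here. MET3 had a log2 ratio of 0.17 there. The nearest tested genes were MHO1 beyond TDH2 at 0.13 and SPC1 to the right at -0.11. None of the other members adjoins a deleted gene: by gene order in R64 the next closest is MET10, with 26 genes between it and HXK1, and MET14, MET16, MET2 and MET6 lie on chromosomes that hold no deleted gene.

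MET6 lies close to a run of called genes on chromosome 5. Its right-hand neighbours IES5, TSC11 and AIM11 had log2 ratios of 0.26, 0.04 and 0.41 without a call, and PUP3, a proteasome subunit gene and the first called one, stood at 1.14 in the fourth place. MET6 itself, at -0.16, had a value on the other side of 0 from that run. TRP2 to its left stood at 0.01. Over all 10 genes, the nearest tested gene on each side had a median log2 ratio of -0.0002, with 10 of 20 above 0, 0 called and none at 0.3 or beyond in either direction. The genes next to SUL1, MET14 and MET16 had log2 ratios between -0.16 and 0.14, below those of the 3 members.

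**Figure D4:**
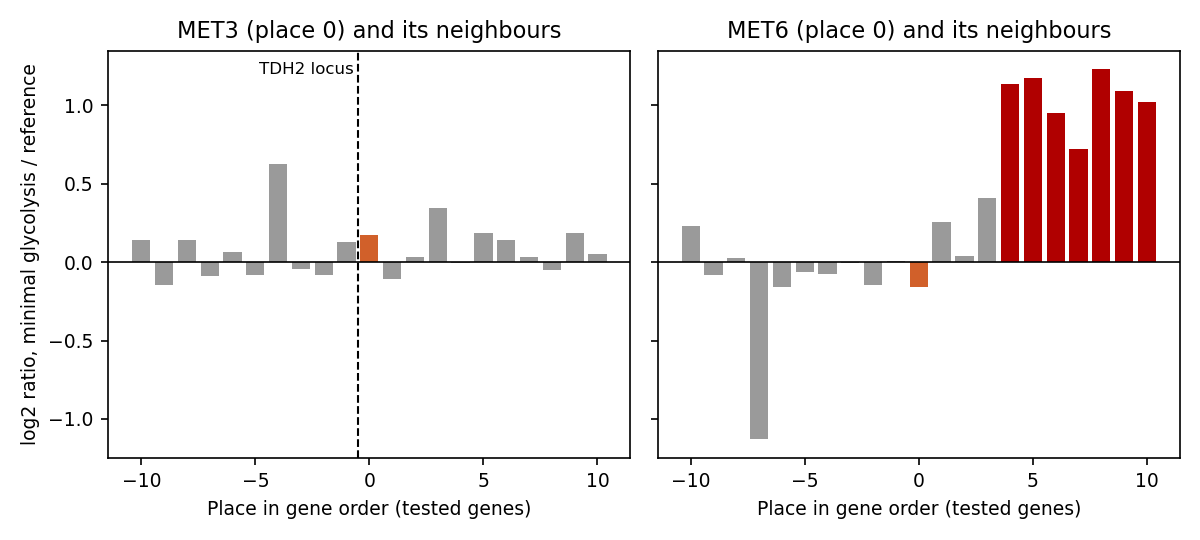
Log2 ratio of minimal glycolysis over reference for MET3 (left) and MET6 (right) in orange and for 10 tested models on either side in gene order, with called models in red and the deleted TDH2 locus as a dashed line. The models around MET3 at 0.17 range from -0.14 to 0.63 with none called. The 0.63 is that of LSO1, at a low level of 0.923 FPKM in the reference and 1.42 in IMX372. MET6 at -0.16 stands 4 places from PUP3 at 1.14, where the called models begin.

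Around the 10 genes, the rest of sulfur amino acid metabolism gave no call, where 0.791% of all tested models were called. At so low a share, a count of 0 among 24 genes is little evidence that they did not change. The list of 24 further pathway genes, which supply siroheme, reducing power, homoserine, methyl groups, S-adenosylmethionine, cysteine and glutathione, had 0 called in either direction. Its median log2 ratio was -0.01, with 11 above 0 and 13 below, and with 1 gene under an unadjusted Cuffdiff p of 0.05. The mean, 0.01, differs from the median in sign. MHT1, which methylates homocysteine with S-methylmethionine, was that gene, going from 146 to 190 FPKM at a log2 ratio of 0.38 with an authors' p of 0.0209. MET1, of the synthesis of siroheme, the cofactor of sulfite reductase, had 237 and 280 FPKM at 0.24. MET22, which clears the phosphoadenosine phosphate that the MET16 reaction releases, had 776 and 873 FPKM at 0.17. MET12, a methylenetetrahydrofolate reductase, GSH1, which starts glutathione synthesis, and HOM2, of homoserine synthesis, had the lowest ratios, at -0.13, -0.12 and -0.12. TRX1 and TRX2, the thioredoxins used by Met16, stood at 0.02 and 0.00, and CYS3 and CYS4, which lead from homocysteine to cysteine, at -0.08 and -0.01.

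The regulators of the 10 genes and the other routes by which sulfur enters lay higher. Of 16 such genes 14 have a model, MET4 and SEO1 not being analysed here. Beside 0.791% of all tested models, 1 of the 14 was called. This was BDS1, an alkyl sulfatase gene that frees sulfate from organic esters, which rose from 42.8 to 68.9 FPKM, or 1.61-fold, with a Cuffdiff q of 0.00735 in the authors' deposited table. Its Cuffdiff p was 5e-05, the smallest in that table, against 0.000999 by the normal approximation. Whether the call would stand with the larger p was not tested. The list had 13 genes above 0 and 1 below, where 53.0% of all tested genes were above 0. Its median log2 ratio was 0.26, and 0.24 after the correction for expression level, length and GC content. Before the correction 6 genes were at 0.3 or above, where 3.28% of all tested genes were. An unadjusted Cuffdiff p under 0.05 was reached by 6 of 14, all with the higher value in IMX372, against 1.89% of tested models. That count depends on which p is used: SAM3 had a Cuffdiff p of 0.0216 and 0.0572 by the normal approximation. The list was chosen with earlier results of these data known, so these shares are no test of it.

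Among the regulators, all 5 measured were above 0, from 0.15 for MET30 to 0.36 for MET32, where 53.0% of all tested genes were above 0. MET32 had 150 and 193 FPKM with an authors' p of 0.032, and MET28, a cofactor that steadies Cbf1 and Met4 on DNA, had 339 and 402 FPKM at 0.25. MET31 and CBF1 stood at 0.25 and 0.24. MET28, MET31 and MET32 are short, from 534 to 576 bases, and genes of like length had a median of 0.08. After the correction for expression level, length and GC content, the median of the 5 regulators went from 0.25 to 0.18, with all 5 above 0. None was called, and the q was 0.998 for each in the authors' deposited table.

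Among the uptake genes, MUP1, the high-affinity methionine permease, was nearest to a call, with 185 and 272 FPKM, a log2 ratio of 0.55 and a Cuffdiff q of 0.0989 in the authors' deposited table. MMP1 and SAM3, permeases for S-methylmethionine and S-adenosylmethionine, stood at 0.40 and 0.37, and YCT1, a cysteine transporter, at 0.38. The MMP1 value is that of its longest tested model, of 1164 bases, where the R64 gene has 1752. A further tested MMP1 model adjoins that one, and its value is not given here, so 0.40 describes only part of the gene. SOA1, a transporter of sulfonates and inorganic sulfur anions, was the gene below 0, at -0.09 with 14.5 FPKM in the reference. Some of these genes lie side by side: MHT1 at 0.38 and MMP1 at 0.40 are adjacent on chromosome 12, where YCT1 at 0.38 and JLP1 at 0.08 also lie, and SAM3 at 0.37 adjoins SAM4 at 0.06 on chromosome 16. Whether position moves with the ratio was not tested. In R64, 19.7% of the 51-base stretches of SAM4 recur elsewhere, so its value of 0.06 is uncertain, while MHT1, MMP1, SAM3, MUP1, YCT1 and BDS1 have 0 such stretches. All these ratios come from the same pooled libraries as those of the 10 members, and whether the lists differ was not tested.

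**Figure D5:**
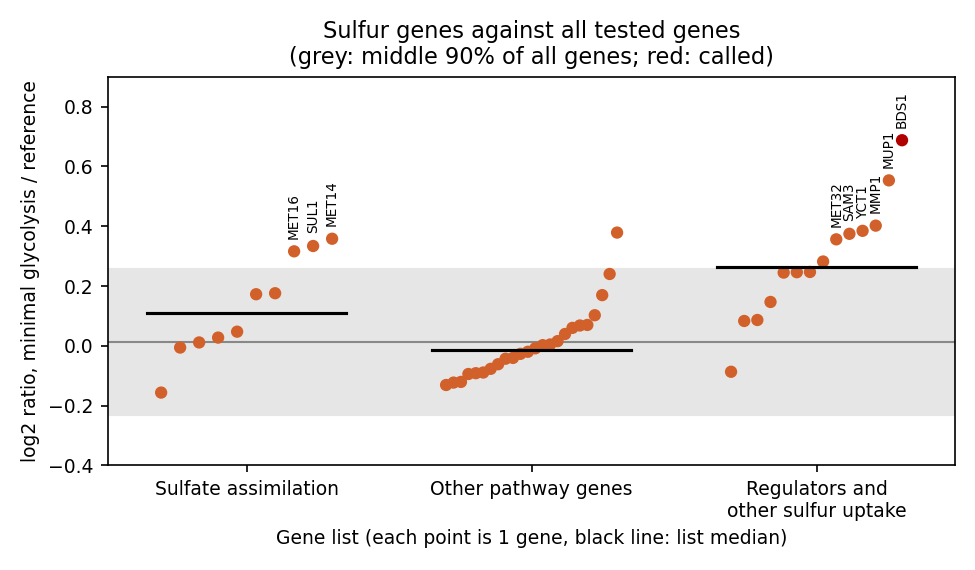
Log2 ratio of minimal glycolysis over reference for the 10 sulfate assimilation genes, 24 other pathway genes, and 14 regulators and other sulfur uptake genes, with list medians as black lines and the middle 90% of all named tested genes, -0.23 to 0.26, in grey. Medians are 0.11, -0.01 and 0.26, and BDS1 (red) is the only called gene of these lists.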

How the data were processed

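Messenger RNA of 2 reference and 2 minimal glycolysis libraries was compared, grouped by the strain label. The submitters' processing notes name Cuffdiff, Cufflinks, SAMtools 0.1.7-r510, BWA 0.5.9-r16 and CASAVA 1.8.2, in no given role or order. The authors deposited, in 1 Cuffdiff table, an FPKM per strain pooled over libraries, the log2 ratio, the test statistic (a signed score) and the p-value and q-value. Sample names end in a word for masking whose object is not given in the sources used here. Per-sample columns left unused numbered 0.

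Ratios were recomputed without a pseudocount and differ from the deposited log2 values by at most 1.31e-05. The longest tested model per systematic name was kept, giving 5328 named genes. Calls are the authors' q of at most 0.05. The correction fitted degree 3 polynomials of log2 mean FPKM, log2 coding length and GC content to genes not called and took up 13.1% of the variance. A form of it without GC content was tested on simulated data in which the only bias was with coding length. Symbols, GC content, promoters and sequence repeats came from R64 by systematic name. Start positions in the deposited file count from 0 and are given here counting from 1. The file's coordinates were not used on R64. Python 3.11.15 and pandas 2.3.3 were used. Named were all members, each called gene of the other lists and up to 6 by absolute log2 ratio, with partner genes, further regulators, SOA1 and the neighbours of MET6 added after their values were seen. Members and lists were chosen with earlier results of these data known. The promoter search, the 51-base search and the comparison by length were added after the table was seen.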

Additional observations from a re-analysis of the deposited data

How the results depend on the processing

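The count of called members stayed at 0 under a q of 0.01, a further 2-fold requirement, q-values recomputed over all models or over models of at least 10 FPKM, and with every model of a name. The 1 call among regulators and uptake genes, BDS1, became 0 when at least 2-fold was required and was 1 in the other settings. No setting replaced the authors' p by that of the normal approximation. The members' median log2 ratio of 0.11 ranged from 0.10 when centred to 0.14 when corrected, with 1 or 5 FPKM added and the mean in between. Single members shifted by less than their implied standard error in all 40 values, and MET5 and MET17 changed sign in 1 setting each. Their neighbours' median was 0.01 with 2 genes per side. Leaving out a library was not run, because values are pooled. No paired analysis was possible because the table gives 1 value per strain. The depth per gene is unknown.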
